A study of Equus caballus with 24 samples.

Results

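The 150 genes described here had a higher level in the “Clinical Phase” than in the “Remission Phase” in each of 12 horses. They were selected on their measured values. Of 30371 listed genes, 13597 had 0.5 CPM (counts scaled to library size) or more in 1 or more of 24 libraries and were kept. Levels are log2(CPM + 4), with library sizes scaled by TMM factors, and the change of a gene in a horse is its “Clinical Phase” level minus its “Remission Phase” level. In 349 of the kept genes, or 2.57%, the change was above 0 in all 12 horses. Of these 349, 2 were left out by their identifier, and the 150 with the largest mean change over the horses were taken from the rest. The choice used the difference between the phases, so the values of that difference are given as a description only, and no test of it is used as evidence.

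The study followed 12 Icelandic horses that shared pasture, feed and exposure to biting Culicoides midges. Of these, 7 were allergic, with a naturally occurring seasonal hypersensitivity to the midges, and 5 were healthy and never showed clinical allergy. In the “Clinical Phase”, the clinical scores of the healthy group reached low values below the paper's threshold for allergy. Blood was taken from the same horses without midge exposure in January and February, the “Remission Phase”, and during exposure in August and September, the “Clinical Phase”, when the allergic horses had chronic signs. All were mares except for a gelding in the allergic group, and the allergic horses were on the whole older, so age and allergy status cannot be told apart. Monocytes were enriched by CD14 and sorted as live CD14low/IgE+/MHCIIhigh/CD16-/CD163- cells, frozen, and later used for poly-A RNA sequencing. Season, feed, midge exposure and days of sampling and sorting all differ between the phases and cannot be told apart.

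Monocytes are circulating cells of the innate immune system that take up particles, sense microbial products and give rise to macrophages and dendritic cells in tissues. A subset of them carries IgE, the antibody class of allergy, on Fc receptors at the surface. Binding of allergen to that IgE can trigger the release of cytokines and chemokines, which links these cells to the allergic response.

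Genes carry only Ensembl identifiers in the deposited files. None could be paired with a symbol, since the available horse gene table, which is of another assembly, holds 0 Ensembl identifiers. Gene functions, markers of the sorted cells and markers of other cell types could therefore not be examined, and the labelled cell type was not checked against its markers. Identifiers are printed for 2 of the genes, the one with the largest mean change and the most abundant of the others. All other genes are called by their rank of mean change, from 1 to 150. Horses carry the codes of their libraries, with A for the 7 allergic and H for the 5 healthy animals. The codes come from the deposited files, not from the sample labels.

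Reads counted on genes ranged from 17558184 to 40404429 per library in the “Remission Phase” (median 28554227) and from 14493071 to 24832163 in the “Clinical Phase” (median 19823848). The “Clinical Phase” library of a horse held 0.449 to 1.41 times the counts of its “Remission Phase” library, and only horses H2 and A6 were above 1. Among the “Remission Phase” libraries, that of A6, an allergic horse, stood apart. It had a TMM factor of 0.737, against 0.909 to 1.11 in the other libraries of that phase, and counts on 11802 genes, against 12934 to 13877. Its median level over the kept genes was 3.80, against 3.99 to 4.06. Most summaries over the horses are therefore given with and without horse A6, whose library quality was not tested as a cause of any of them.

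The mean level of the 150 genes in a “Remission Phase” library ranged from 4.18 in A6 to 5.10 in A5 (median 4.79). In the “Clinical Phase”, it ranged from 5.21 in H6 to 6.43 in A6, with a median of 5.61. Every “Clinical Phase” library thus lay above every “Remission Phase” library, in a measure whose direction the choice of genes fixed. Horse A6 had both the lowest “Remission Phase” level and the highest “Clinical Phase” level. Without it, the ranges were 4.55 to 5.10 and 5.21 to 6.03. Healthy horse H6 had the lowest “Clinical Phase” level after a “Remission Phase” level of 4.89, which only A5 exceeded. In bulk RNA, a change in the share of cells that express a gene and a change in RNA per cell cannot be told apart.

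**Figure D1:**
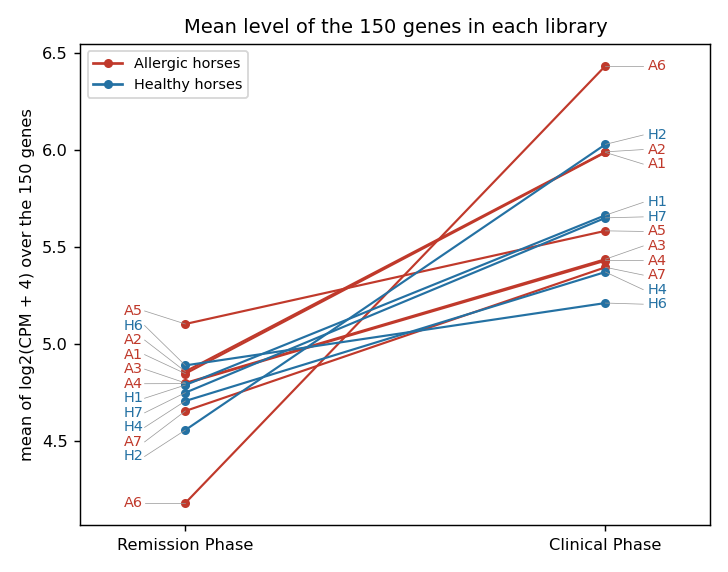
Mean of log2(CPM + 4) over the 150 genes in each library, with a line joining the libraries of a horse (red, 7 allergic horses; blue, 5 healthy horses). A6 runs from 4.18 to 6.43, the steepest line, and H6 from 4.89 to 5.21, the flattest.

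Summed over the 150 genes, the level was 6033 ± 823 CPM (SD, n = 12) in the “Remission Phase” and 12375 ± 3649 CPM (SD, n = 12) in the “Clinical Phase”. As a share of the counts of a library, this was a median of 0.625% and 1.12%, or 0.629% and 1.09% without A6. Without A6, the sums were 6192 ± 643 CPM and 11527 ± 2269 CPM (SD, n = 11). The 10 most abundant of the genes held 25.3% of the sum and the most abundant gene 3.44%, so that no single gene carried it.

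Over the 12 horses, the mean change of a gene ranged from 0.62 to 2.13 on the log2 scale, with a median of 0.83. Over all kept genes, the median of this mean change was -0.00, with quartiles of -0.11 and 0.10. A mean change of at least 1 was found in 41 of the 150 genes, at least 1.5 in 14 and at least 2 in 3. Without A6, these counts were 29, 8 and 0. As a ratio of mean CPM between the phases, the median was 2.08-fold, and 82 genes reached at least 2-fold, 36 at least 3-fold and 15 at least 5-fold. Without A6, the median was 1.87-fold and the counts were 58, 27 and 6. The last gene inside the limit, at rank 150, had a mean change of 0.623, from a mean of 66.7 CPM to 105 CPM. The first gene outside it had a mean change of 0.620, from 79.4 CPM to 119 CPM, so the limit of 150 marks no step in the data.

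The genes were mostly well covered. Their mean CPM over the 24 libraries had a median of 37.8 and ranged from 2.15 to 316, while the median over all kept genes was 12.4. A mean of at least 10 CPM was found in 122 of them. The constant added to CPM before the log damps changes at low levels, and these means include the “Clinical Phase” values used in the choice. The choice thus bears on these levels, and nothing is read from their distance to all kept genes. In the “Remission Phase” alone, the lowest mean was 0.321 CPM, at rank 47. All 150 genes passed the filter on low values, and 0 of them passed it through “Clinical Phase” libraries alone. A count of 0 occurred in 9 genes, only in “Remission Phase” libraries, 5 of them in A6 and 5 in H2. At the scaled totals of these libraries, a count of 0 does not exclude levels of up to 0.232 CPM in A6 and 0.129 CPM in H2. No gene was at 0 in all libraries of a phase. Genes numbered above the identifiers left out made up 11.3% of the genes and 15.3% of all kept genes.

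The gene with the largest mean change was ENSECAG00000026945, at 2.13 ± 1.56 (SD, n = 12). During the “Remission Phase”, it had 1.93 CPM at the lowest, a median of 50.4 CPM and 88.0 CPM at the highest in the 7 allergic horses. In the healthy horses, it had 9.61 CPM in H1, 1.67 in H2, 4.85 in H4, 10.1 in H6 and 7.04 in H7. The allergic horses thus fell apart, with A1, A2, A3 and A5 at 50.4 CPM or above, over all healthy horses, and A4, A6 and A7 at 6.59 CPM or below, within the healthy range.

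In the “Clinical Phase”, ENSECAG00000026945 had 24.6 CPM at the lowest, a median of 76.9 CPM and 194 CPM at the highest in the allergic horses. The healthy horses had 63.0 CPM in H1, 136 in H2, 139 in H4, 10.3 in H6 and 108 in H7. Horse H6, at 10.1 CPM and then 10.3 CPM, was the only one of the 5 healthy horses near its earlier level, with a change of 0.02. Of the 4 allergic horses that started high, A5 and A3 changed by 0.14 and 0.35 but A1 and A2 by 1.08 and 1.87. Horse H2 had the largest change, 4.62. The mean over the horses was 1.98 without A6.

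The most abundant of the other genes was ENSECAG00000018996, at rank 19, with a mean change of 1.43 ± 0.89 (SD, n = 12). It had 125 CPM at the lowest, a median of 156 CPM and 213 CPM at the highest in the allergic horses in the “Remission Phase”. In the healthy horses, it had 134 CPM in H1, 127 in H2, 181 in H4, 161 in H6 and 154 in H7. These levels lay close together, unlike those of ENSECAG00000026945, and the groups overlapped.

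During the “Clinical Phase”, ENSECAG00000018996 had 290 CPM at the lowest, a median of 531 CPM and 1119 CPM at the highest in the allergic horses. The healthy horses had 577 CPM in H1, 464 in H2, 199 in H4, 169 in H6 and 428 in H7. The highest value belonged to A6, and H4 and H6 lay within the “Remission Phase” range of the other horses. Changes were 3.12 in A6, 0.13 in H4 and 0.07 in H6. Without A6, the mean change was 1.28.

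**Figure D2:**
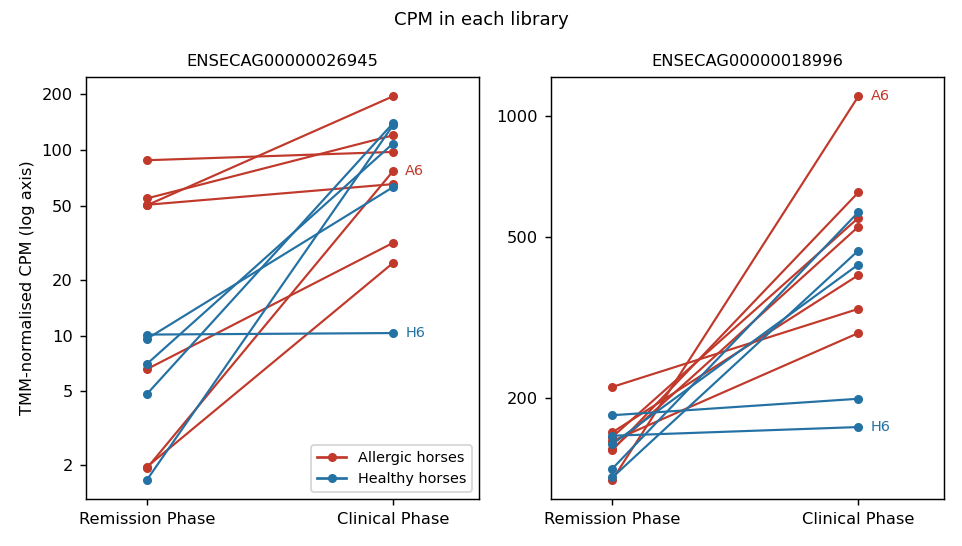
TMM-normalised CPM of ENSECAG00000026945 (left) and ENSECAG00000018996 (right) in each library on a log axis, with a line joining the libraries of a horse (red, 7 allergic horses; blue, 5 healthy horses). For ENSECAG00000026945 the “Remission Phase” levels spread from 1.67 to 88.0 CPM, and for ENSECAG00000018996 from 125 to 213 CPM.

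The genes at ranks 2 to 10 differed widely in level. Rank 5 had a mean of 88.4 CPM in the “Remission Phase” and 310 CPM in the “Clinical Phase”, and rank 6 had 83.2 CPM and 291 CPM. Without A6, these means were 92.0 CPM and 280.0 CPM for rank 5 and 80.6 CPM and 258 CPM for rank 6. Rank 8 was among the lowest, with 4.21 ± 1.95 CPM and 22.2 ± 8.26 CPM (SD, n = 12). On the scale of log2(CPM + 4), rank 8 also had the steadiest change of the 10, between 0.84 in A5 and 2.29 in H2. As a ratio of CPM, its change ran from 2.15-fold in A5 to 23-fold in H2. That of rank 6 ran from 1.45-fold in H6 to 6.5-fold in H2. All “Clinical Phase” libraries of rank 8 lay above all its “Remission Phase” libraries. Rank 2, by contrast, changed by between 0.11 in A5 and 5.72 in A6, the largest change of any of the 150 genes in any horse. Its level in A6 was 0.386 CPM, or 5 reads, in the “Remission Phase” library that stood apart, and then 227 CPM. Its largest change in the other horses was 3.79, in A2.

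The spread of the change over the horses, as SD, had a median of 0.58 over the 150 genes and of 0.28 over all kept genes. It was at least 1 in 15 genes and under 0.3 in 4. Without A6, the medians were 0.42 and 0.23, and the counts were 4 and 19, so A6 carried much of the spread. The genes were chosen on these same changes, so the choice bears on their spread and nothing is read from its distance to all kept genes. The smallest spread belonged to rank 142, at 0.64 ± 0.19 (SD, n = 12), with 32.3 to 49.7 CPM in the “Remission Phase” and 48.7 to 74.6 CPM in the “Clinical Phase”. In 5 genes, at ranks 4, 6, 8, 17 and 35, every horse changed by at least 0.5. These 5 were picked after their values were seen. At the other end, 56 genes had a smallest change under 0.1, so that 1 horse or more barely met the criterion. Every “Clinical Phase” library lay above every “Remission Phase” library in 35 of the 150 genes, against 0.368% of all kept genes, and the choice of genes bears on this count. It was 36 without A6 and 48 without H6.

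The mean change of the 150 genes differed between horses from 0.32 in H6 to 2.25 in A6, with a median of 0.81. Horse H2 came next to A6 with 1.47, followed by A1 with 1.14 and A2 with 1.13. The largest change of a gene over the 12 horses was found in A6 for 111 of the 150 genes, in H2 for 15 and in A2 for 10. The smallest change was found in H6 for 68 genes, in A5 for 25 and in H4 for 18. A change above 1 was found in 136 genes in A6 and in 1 gene in H6. Over all kept genes, the share with a higher level in the “Clinical Phase” was 52.2% in A6, the highest of the 12, and 47.6% in H6, within the range of 45.8% to 49.8% in the other horses. Without A6, the median of the mean change over the 150 genes was 0.73 in place of 0.83.

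**Figure D3:**
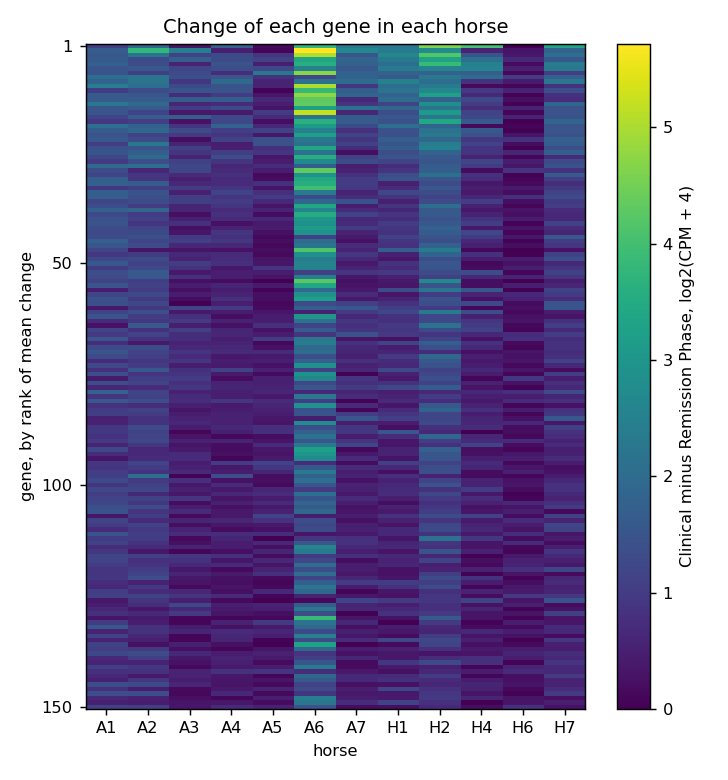
Change of each of the 150 genes (top to bottom by rank of mean change) in each of the 12 horses, as “Clinical Phase” minus “Remission Phase” on the scale of log2(CPM + 4). The column of A6 is the brightest, with a mean of 2.25, and that of H6 the darkest, with a mean of 0.32.

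Horse H6 limited which genes could be chosen. Of the 13597 kept genes, 614 had a higher level in exactly 11 of the 12 horses, and in 237 of these H6 was the horse that was not higher. Horse A7 followed with 71 and A3 with 48, and A2 was the exception in 7. Among such genes, 176 had a mean change above that of rank 150, and H6 was the exception in 133 of them.

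When the choice was repeated without H6, 586 genes were higher in all 11 remaining horses and only 59 of the 150 genes with the largest mean change were among the original ones. The 91 genes that came in had a mean change of 0.95 to 3.95 in the 11 horses, with a median of 1.43. Their direction in H6 follows from how they were found, since a gene higher in H6 as well would have met the original criterion.

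**Figure D4:**
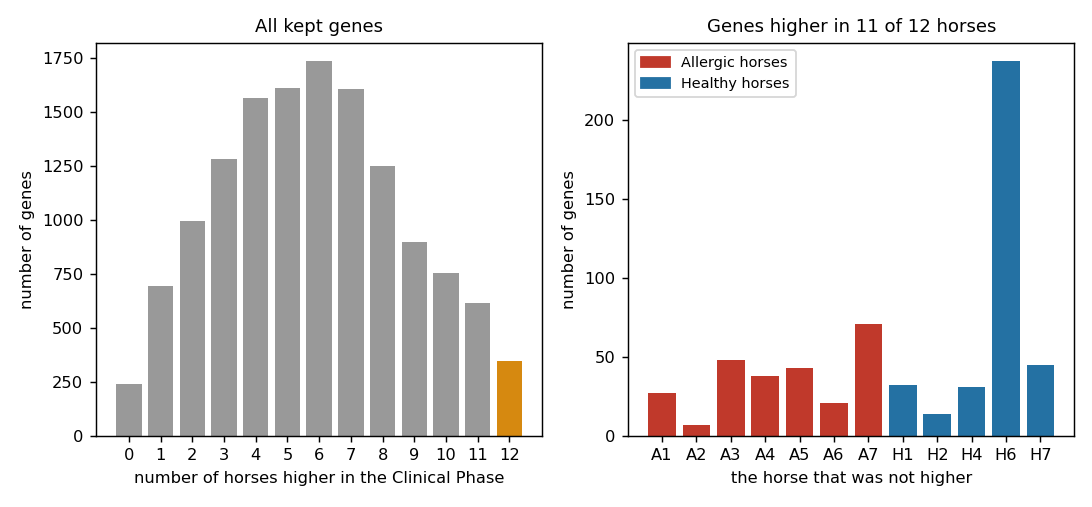
Left, number of the 13597 kept genes by the number of horses with a higher level in the “Clinical Phase”, with the 349 genes higher in all 12 horses in orange. Right, for the 614 genes higher in 11 horses, the horse that was not higher (red, allergic; blue, healthy), which was H6 for 237 genes and A7 for 71.

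Leaving a horse out of the choice also gave a measure that the choice had not used, namely the direction in that horse. For each of the 11 horses other than H6, 150 genes were chosen in the rest. Of these, 140 to 149 had a higher “Clinical Phase” level in the horse left out, against 45.8% to 52.2% of all kept genes. For H6 the count was 59 of 150, or 39.3%, against 47.6% of all kept genes in that horse. The median change in the horse left out was 1.97 in A6, 1.31 in H2 and -0.14 in H6. Of the genes chosen without A6, 147 were higher in A6 and 137 were among the original ones.

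The choice was then made within one group and the direction read in the other. With the 7 allergic horses alone, 857 genes were higher in every horse, and of the 150 with the largest mean change 62 were higher in all 5 healthy horses, against 9.23% of all kept genes. The median change of these 150 genes was 1.30 in the allergic and 1.13 in the healthy horses. By horse, 150 of them were higher in H1, 150 in H2, 145 in H4, 148 in H7 and 65 in H6. Over all kept genes, the shares were 49.1% in H1, 49.4% in H2, 49.8% in H4, 47.6% in H7 and 47.6% in H6. In the 4 healthy horses other than H6, 144 of the 150 were higher in every horse, against 18.0% of all kept genes. That last count was added after the data had been seen.

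With the 5 healthy horses alone, 1255 genes were higher in every horse. Of the 150 with the largest mean change, 109 were higher in all 7 allergic horses, against 6.30% of all kept genes, and 148 had a mean change above 0 there, against 50.4% of all kept genes. Their median change was 0.82 in the healthy and 0.91 in the allergic horses. The count per allergic horse ran from 132 in A5 to 147 in A1. Over all kept genes, the share per allergic horse ran from 45.8% in A2 to 52.2% in A6. Without A6, the counts of genes higher in every horse of the other group were 70 for the choice in allergic horses and 111 for the choice in healthy horses.

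Allergic and healthy horses were next compared in the size of the change. The mean change of the 150 genes was 1.00 ± 0.61 (SD, n = 7) in allergic and 0.85 ± 0.42 (SD, n = 5) in healthy horses, so the group means lay closer than the horses within a group. Without A6, the allergic mean was 0.79 ± 0.28 (SD, n = 6), below the healthy one. In 116 of the 150 genes the mean change was larger in allergic horses, against 53.5% of all kept genes. Without A6, it was larger in 73 of them, against 50.1%. Nothing is read from these counts or from their distance to the shares of all genes.

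**Figure D5:**
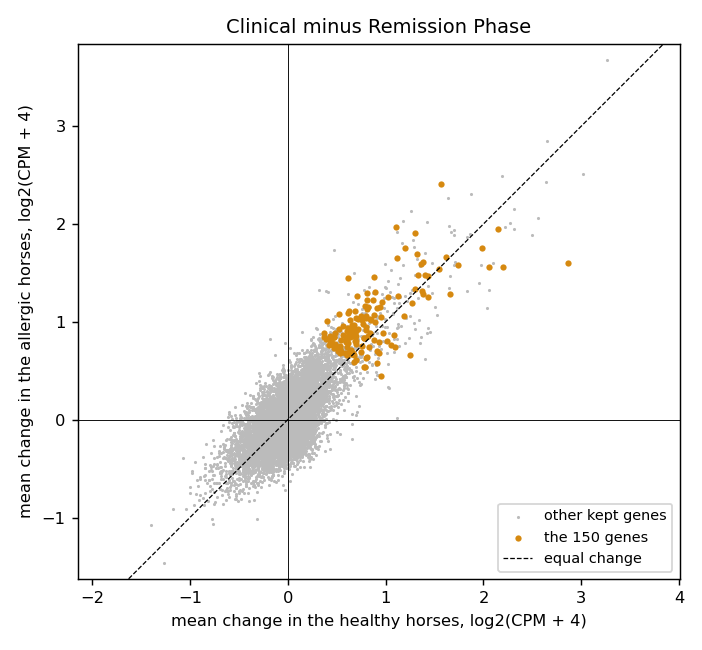
Mean change (“Clinical Phase” minus “Remission Phase”, log2(CPM + 4)) in the 7 allergic horses against that in the 5 healthy horses, for the 150 genes (orange) and the other kept genes (grey), with a dashed line of equal change. Of the 150 genes, 116 lie above the line, while ENSECAG00000026945 lies far below it at 1.60 in allergic and 2.86 in healthy horses. The 150 genes were chosen on these same changes, so their position is not independent of the choice.

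Whether the change of a gene differed between allergic and healthy horses was tested over all 13597 genes in a fit of the 24 libraries in 4 groups. The choice used the changes of these same horses, so the counts among the 150 genes are not independent of it. Their distance to the shares of all genes is given as a description only. By edgeR's quasi-likelihood test with Benjamini-Hochberg adjustment, 0 of the 150 genes had an adjusted p under 0.05, against 0% of all genes, and DESeq2 also called 0. At an unadjusted p under 0.05, 2 of the genes had a larger change in allergic horses, against 1.52% of all genes, and 2 a smaller one, against 2.19%. A p above the threshold does not show that the change was equal. All genes together gave 505 at that level in edgeR and 495 in DESeq2, but 320 in edgeR without H4 and 961 without a filter on low counts. The 4 of the 150 genes at that level became 10 without A6, against 3.91% of all genes in that fit, and 9 without H6, against 4.54%. With each horse left out the number ranged from 2, without H1 or H4, to 10, so it depends on single horses. The changes of the allergic horses were all above those of the healthy ones in 0 of the 150 genes, against 0.154% of all. They were all below in 0, against 0.199%. The choice of genes bears on these counts too.

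For ENSECAG00000026945, the fitted difference of the change, allergic minus healthy, was -2.51 on the log2 scale (standard error 1.03, adjusted p = 0.962 by edgeR's quasi-likelihood test). It was -1.71 with horse as a block. For ENSECAG00000018996, it was 0.52 (standard error 0.39, adjusted p = 0.962 from the same edgeR test), with 0.20 without A6 and 0.78 without H1. The smallest unadjusted p among the 150 genes belonged to rank 74, at -3.27 (standard error 1.30, edgeR adjusted p = 0.962). It had 0.533 ± 0.925 CPM (SD, n = 7) in allergic and 0.0311 ± 0.0266 CPM (SD, n = 5) in healthy horses in the “Remission Phase”. Its “Clinical Phase” levels were 4.76 ± 2.42 CPM (SD, n = 7) and 2.89 ± 2.22 CPM (SD, n = 5), and its “Remission Phase” counts were 0 to 2 reads in the healthy horses. On the scale of log2(CPM + 4), its mean change was 0.93 in allergic and 0.71 in healthy horses, so the sign of the difference turns with the scale and is not read here.

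Levels of allergic and healthy horses were also compared within each phase. The choice did not use the group of a horse, but it used these same levels, with the largest change in A6 for most genes, so the comparison is not independent of it. At an adjusted p under 0.05 (Benjamini-Hochberg), 0 of the 150 genes were called in the “Remission Phase” with edgeR's quasi-likelihood test, against 0.00789% of 12670 genes tested. DESeq2 called 34 genes, 2 of them among the 150, and edgeR had 1272 genes at an unadjusted p under 0.05, or 759 without H4. At an unadjusted p under 0.05, 22 of the 150 genes were higher in allergic horses, against 6.37% of all genes, and 7 were lower, against 3.67%. The total of 29 was 34 without A6, against 13.1% of all genes in that fit, and 26 without H6, against 7.81%. With each horse left out it ranged from 17 without H4, against 6.01%, to 35 without A7, against 12.9%. The median log2 fold change of the 150 genes was 0.01, against -0.00 over all genes. It was 0.11 without A6 and -0.08 without A5, so its sign depends on single horses. The values of the 7 allergic horses were all above those of the 5 healthy ones in 2 of the 150 genes, against 0.831% of kept genes, and all below in 1, against 0.566%.

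Rank 6 had the smallest unadjusted p of the 150 genes in the “Remission Phase”. It had 83.5 CPM at the lowest, a median of 103 CPM and 135 CPM at the highest in allergic horses, and 38.8 to 83.2 CPM in healthy horses. Each of the 7 allergic horses thus lay above each of the 5 healthy ones, though barely so for H6, the highest of these. Allergic over healthy, the estimate was a log2 fold change of 1.01 (edgeR adjusted p = 0.299, standard error 0.20). DESeq2 called this gene with an adjusted p of 0.00134, and edgeR called it without H6, at an adjusted p of 0.0334. DESeq2 called 1 other of the 150 genes, rank 16, with an adjusted p of 0.0143 against 0.482 in edgeR. The estimates were 2.45 for ENSECAG00000026945 (edgeR adjusted p = 0.482, standard error 0.86) and 0.08 for ENSECAG00000018996 (edgeR adjusted p = 0.839, standard error 0.13).

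At an adjusted p under 0.05 (Benjamini-Hochberg), 0 of the 150 genes were called in the “Clinical Phase” with edgeR's quasi-likelihood test, against 0% of 13315 genes tested, and 444 genes had an unadjusted p under 0.05. That number was 861 without a filter on low counts and 291 with a stricter one. DESeq2 called 9 genes. Of the 150 genes, 6 were higher in allergic horses at an unadjusted p under 0.05, against 1.94% of all genes, and 2 were lower, against 1.40%. Their total of 8 was 7 without A6, against 3.12% of all genes in that fit. With each horse left out it ranged from 5 without H6, against 3.37%, to 16 without H2, against 3.42%. The median log2 fold change was 0.18, against 0.01 over all genes, and 117 of the 150 genes were above 0, against 52.8% of all genes. With each horse left out, the median ranged from 0.03 without A6 to 0.30 without H2. It was 0.10 without H6 and 0.12 without H4, but 0.24 without A3, A4 or A7, so it depends on single horses. Without A6, 85 genes were above 0, against 51.6% of all genes, and without H2, 132 were, against 52.6%. The allergic horses were all above the healthy ones in 1 of the 150 genes, against 0.0662% of kept genes, and all below in 1, against 0.0956%.

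Rank 17 had the smallest unadjusted p of the 150 genes in the “Clinical Phase”. It had 74.9 CPM at the lowest, a median of 87.4 CPM and 91.2 CPM at the highest in allergic horses, and 49.9 to 69.1 CPM in healthy horses, so the groups did not overlap. In the “Remission Phase” they overlapped, with 13.7 to 45.3 CPM in allergic and 10.5 to 32.3 CPM in healthy horses. Its “Clinical Phase” estimate was 0.52 on the log2 scale (edgeR adjusted p = 0.409, standard error 0.11). DESeq2 called this gene alone among the 150, against 9 over all genes tested, with an adjusted p of 0.0201. The estimates were -0.07 for ENSECAG00000026945 (edgeR adjusted p = 1.00, standard error 0.53) and 0.59 for ENSECAG00000018996 (edgeR adjusted p = 1.00, standard error 0.35). The latter was 0.32 without A6 and 0.81 without H1.

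For the contrast that chose the genes, edgeR's quasi-likelihood test used the same unpaired fit of all 24 libraries. It called 149 of the 150 genes higher in the “Clinical Phase”, against 9.69% of all kept genes. The choice itself largely fixed that count, so nothing can be read from it or from its distance to the share of all genes.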

How the data were processed

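The authors sequenced poly-A RNA in directional single-end libraries, trimmed reads with Trim Galore 0.6.0, mapped them to EquCab3.0 with STAR 2.7.0e and deposited raw counts per gene for each of 24 libraries. Which tool counted the reads, with what strand setting and on which annotation release, is not stated in the available sources, so overlapping genes or near-identical copies could share reads. Counts were analysed in R 4.3.3 with edgeR 4.0.16 and DESeq2 1.42.0. CPM used TMM factors over the kept genes. The genes, and the lists and tests, were chosen with earlier results of these data known. Identifiers printed are those of the gene with the largest mean change and the most abundant other gene. Tests were edgeR's quasi-likelihood F test with Benjamini-Hochberg adjustment over all genes reaching 0.5 CPM in any library of the fit. Standard errors beside edgeR estimates are not output of that test. They were computed as the absolute log2 fold change divided by the square root of F, and are approximate. The code was first run on made-up counts with known differences. The DESeq2 Wald test was an alternative. Limits from a count of 0 are 3 counts of a library's TMM-scaled total.

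Horses were paired by the codes of the libraries, and the study sampled the same horses in both phases. Deviations from the group means correlated between libraries of a horse with a mean of 0.226, against -0.0205 between horses, with 9 of 12 horses above 0.1 and a lowest value of -0.146.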

Additional observations from a re-analysis of the deposited data

Results flagged for a closer look

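Values far from the rest of their group were looked for in 38 groups of 5 or 7 values, with the gap to the nearest value divided by the range of the group, and 6 were found. Chance flags about 1 in 20 groups. Of these, 5 belonged to allergic horse A6. Its “Remission Phase” library had counts on 11802 genes, the nearest other allergic library on 13130, and a median level of 3.80, the nearest at 3.99. In the “Clinical Phase”, its 150 genes summed to 21707 CPM, the nearest allergic library to 14829 CPM, and ENSECAG00000018996 had 1119 CPM, the nearest 647 CPM. The mean change of the 150 genes in A6 was 2.25, the nearest 1.14. The choice of genes used the levels of A6, so it bears on these values of the 150 genes. The chance rate does not apply to them. The remaining value was the “Remission Phase” library of healthy horse H2, with counts on 12934 genes, the nearest healthy library on 13539. How far the A6 “Remission Phase” library bears on the change in A6 was not tested.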

How the results depend on the processing

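The number of genes higher in every horse stayed within 1.5 times of 349 under the 7 alternatives of scaling, filter, pseudocount and depth, at 281 to 490. With each horse left out it ranged from 356 to 586, the highest without H6. It was 857 with allergic horses only and 1255 with healthy horses only, where fewer horses had to be higher. The list shared 125 to 149 genes with the original 150 under the 7 alternatives, 59 to 143 with each horse left out, the lowest without H6, 105 with healthy horses only and 62 with allergic horses only. The median change of the genes ranged from 0.73 to 0.88 with each horse left out, and its sign was set by the choice. Of genes chosen in allergic horses, 62 were higher in all healthy horses and 144 when H6 was not counted, an alternative added after the data had been seen.

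In the comparison of allergic with healthy horses in the “Remission Phase”, the count of called genes was 1 by edgeR, 34 by DESeq2, and 0 to 4 with each horse left out. In the “Clinical Phase” it was 0 by edgeR, 9 by DESeq2, 4 without a filter on low counts, and 0 to 6 with each horse left out. The comparison of the phases called 2276 genes, and 1223 to 2366 with each horse left out, the lowest without H2. With horse as a block for the pairing, it called 1932 genes and the test of the difference of the change called 0. The cause of these shifts was not tested. The log2 fold change of ENSECAG00000026945 in the “Clinical Phase” ranged from -0.40 to 0.13 with each horse left out, and was above 0 without A4 (0.07), A7 (0.10), H2 (0.12), H4 (0.13) or H7 (0.00). That of ENSECAG00000018996 in the “Remission Phase” ranged from -0.00304 without A5 to 0.15.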
